A study of Xenopus laevis with 6 samples.

Results

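The endoplasmic reticulum (ER) secretory pathway genes examined here are the translocation, folding, coat and retrieval machinery through which a cell makes and exports its secreted and membrane proteins. They were chosen by a rule on names, set with earlier results of these data known. All platform symbols were taken that begin with names of signal recognition particle, translocon, signal peptidase, oligosaccharyltransferase, ER chaperone or protein disulfide isomerase genes. Symbols beginning with names of coatomer, cargo receptor, ER-associated degradation or unfolded protein response genes were taken too. For each symbol the largest-signal probe set was used. This gave 94 of the 7531 symbols on the array, standing for 76 genes, because Xenopus laevis carries 2 related copies (homeologs, written .L and .S) of many genes and both copies of 18 of the 76 were represented. A further 4 probe sets matched the names but carried several symbols and were not used. Transcript levels were measured on 1 Affymetrix Xenopus laevis array per sample, in animal pole explants, the future ectoderm, taken from stage 8 embryos and harvested when intact siblings were at stage 20. The untreated group (4 samples, which the design text calls pooled explants) came from untreated embryos and the NICD group (2 samples) from embryos injected with NICD, the intracellular domain of the Notch receptor. None of the labels names a control injection, so effects of NICD and of injecting cannot be told apart. The labels do not give the form of NICD injected or whether the samples within a group were independent, and the p-values therefore reflect the spread among these arrays alone, which may be technical.

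Proteins bound for secretion are recognised on the ribosome by the signal recognition particle, threaded into the ER through the SEC61 channel, trimmed by signal peptidase, glycosylated by the oligosaccharyltransferase and folded by chaperones and disulfide isomerases. Coat protein complex II (COPII) then carries them to the Golgi, and coat protein complex I (COPI, or coatomer) returns escaped ER proteins and cargo receptors. When unfolded proteins build up in the ER, the unfolded protein response switches on many of these same genes. The outer layer of Xenopus larval skin is rich in secretory cells, the goblet cells, which export mucus and the lectin intelectin. In bulk explants, fewer cells of a type and less RNA per cell cannot be told apart.

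Signals are MAS5 intensities on a linear scale, and changes are differences of log2(signal + 32) between the NICD and untreated groups, a scale that shrinks changes at low signal. The median signal per array lay between 155.6 and 178.9, and precision is limited by there being only 4 and 2 arrays. Day 1 of processing held untreated 1, untreated 2 and NICD 1, and day 2 held the other 3 arrays. Fluidics module 4 handled both NICD arrays and no untreated one, and module and treatment thus cannot be told apart. For gapdh, whose 3' and 5' control probe sets report RNA quality, the ratio of their signals ran from 2.70 to 3.54 without NICD, and was 4.21 in NICD 1 and 2.98 in NICD 2.

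Among the genes of the pathway that passed the test, nearly all were lower in NICD explants. Of the 94 members, 90 were tested and 4 (ddost.S, hyou1.S, pdia2.L and sec24c.S) had signals too low in most arrays to be tested. At an adjusted p under 0.05 in limma, 29 members fell (32.2%, against 14.6% of the 5667 genes tested) and 1 rose (1.11%, against 16.7% of genes). The remaining 60 did not pass. The median log2 change of the tested members was -0.49, whereas that of all tested genes was 0.10, and 78 of 90 members had a negative change (86.7%, against 43.6% of genes). Both NICD arrays lay below every untreated array for 47 members (52.2%, against 22.5% of genes) and above every untreated array for 4 (29.0% of genes were so). Of the 90 tested members 15 fell at least 2-fold, against 626 of the 5667 genes (11.0%). Such falls were 15 of the 29 decreases of members and 626 of the 829 decreases of all genes, a smaller share in members.

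The 2 NICD arrays shared the direction and differed in size. Against the mean of the 4 untreated arrays, the median member differed by -0.40 on the log2 scale in NICD 1 and by -0.64 in NICD 2, and the medians within the days were -0.45 and -0.64. Each NICD array had 13 of the 90 members above the untreated mean, against 57.0% of genes in NICD 1 and 54.4% in NICD 2. The untreated arrays had between 31 and 58 members above the mean of the other untreated arrays, against 46.1% to 53.5% of genes. NICD 1 lay below the lowest untreated array for 54 members (against 1573 of the 5667 genes) and NICD 2 for 61 (against 1815 of the 5667 genes). The count of calls depended on NICD 2. Without NICD 2, 7 members were lower (7.78%, no more than the 7.96% of genes then lower) although 77 of 90 still had a negative change and the median was -0.40. The 7 were ssr3.L, ssr3.S, rpn1.L, dnajc3.L, pdia4.L, sec22b.L and copb2.S. Without NICD 1, 28 members were lower (31.1%, against 13.1% of genes). With the processing day as a block, 40 members were lower and 1 higher (44.4% lower, against 18.1% of genes).

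**Figure D1:**
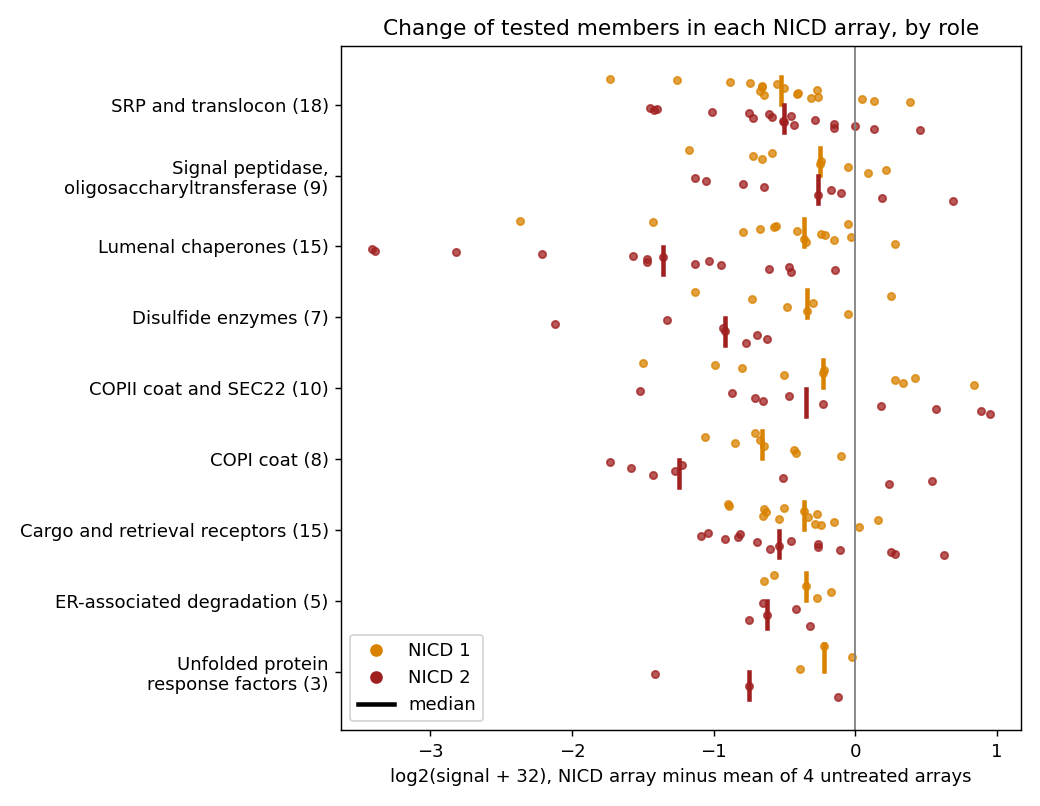
Difference in log2(signal + 32) between each NICD array and the mean of the 4 untreated arrays (horizontal axis) for the 90 tested members, by role, with the number of members in brackets; each point is a gene, orange for NICD 1 and red for NICD 2, and the bars are medians. Most points lie left of 0 in both arrays, and the chaperones have a median of -0.36 in NICD 1 and -1.36 in NICD 2.

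**Figure D2:**
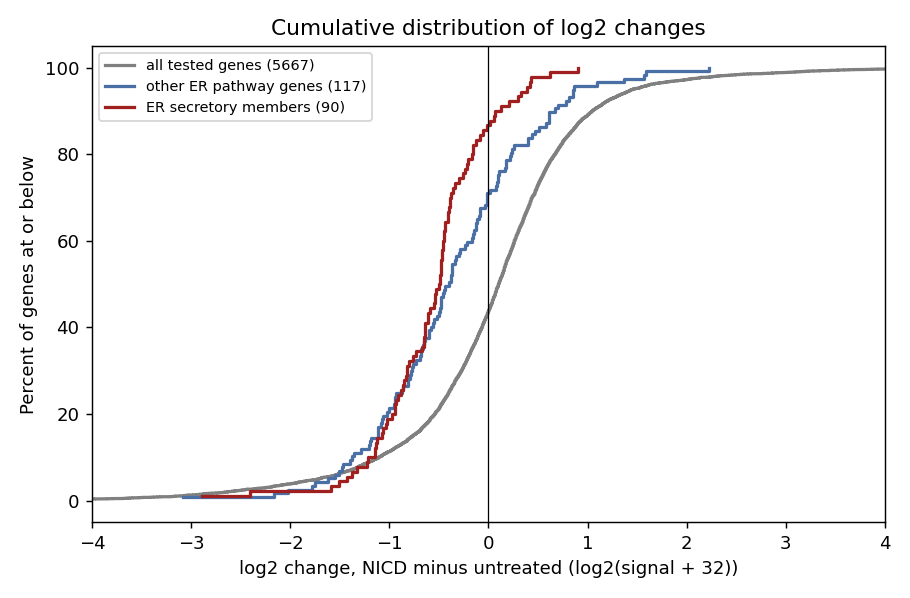
Share of genes (vertical axis, percent) with a log2 change, NICD minus untreated, at or below the value on the horizontal axis, for 90 members, 117 other ER pathway genes and all 5667 tested genes; the axis is cut at -4 and 4. The curve of the members crosses 0 at 86.7% and that of all genes at 43.6%.

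Decreases were found among the genes for entry into the ER. Of 18 tested genes of the signal recognition particle, its receptor and the translocon, 7 fell (38.9%, against 14.6% of all genes) and none rose. The median was -0.49. The gene ssr3.L, for the gamma subunit of the translocon-associated protein complex, which sits beside the SEC61 channel, had signals of 1786.2, 1609.7, 1528.3 and 1777.7 in the untreated arrays and 482.9 and 593.6 in NICD 1 and 2. The groups were far apart, with each NICD array under 600. Its log2 change was -1.59 ± 0.21 (SE; adjusted p = 0.000421 in limma), with -1.75 on day 1 and -1.43 on day 2. Its copy ssr3.S gave 916.7, 763.3, 1076.7 and 1121.8 in untreated and 381.4 and 342.4 in NICD arrays. The NICD arrays were again below all others (log2 change -1.33 ± 0.23, SE; adjusted p = 0.00201 in limma). The other subunits followed at smaller size: ssr2.S fell by 0.88 on the log2 scale and ssr1.S by 0.55, whereas ssr4.L (-0.45) and ssr4.S (-0.16) did not pass.

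The channel itself is built around sec61a1, its pore-forming subunit. The sec61a1.S signal was 9805.8, 9309.1, 6585.6 and 7905.5 in untreated and 4487.9 and 3088.0 in NICD arrays. All untreated arrays exceeded both NICD arrays, and the log2 change was -1.15 ± 0.23 (SE; adjusted p = 0.00428 in limma, 0.0631 without NICD 2). The small subunit sec61b.L fell by 0.64 on the log2 scale, from 12823 ± 512 (SD, n = 4) to 8238 ± 187 (SD, n = 2), but the call was lost without NICD 1 (adjusted p = 0.0531 in limma) or NICD 2 (0.0583), and sec61g.L (-0.39) did not pass. For srp72.S, a protein of the signal recognition particle, the log2 change was -0.65, past the test. The probe sets taken for the remaining particle and receptor genes did not pass, although a second probe set of srp19.L, for a protein of the particle, fell by 0.94 on the log2 scale (adjusted p = 0.0164 in limma) where the one taken gave -0.50. Among them srp9.L (0.42), whose product helps to pause translation, had both NICD arrays above all untreated arrays. The call of ssr1.S (adjusted p = 0.0465 in limma) was lost when any array was left out, and that of srp72.S without NICD 1, NICD 2, untreated 1 or untreated 2.

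Signal cleavage and glycosylation genes were divided. Of 9 tested, 3 fell (33.3%, against 14.6% of all genes) and none rose, and the median was -0.21. The signal of rpn1.L, the oligosaccharyltransferase subunit ribophorin I, was 3711.8, 3077.8, 3978.7 and 4199.8 in untreated and 1637.5 and 1682.4 in NICD arrays. The NICD arrays nearly coincided, well under the untreated range, and the log2 change was -1.15 ± 0.21 (SE; adjusted p = 0.00230 in limma). The catalytic subunit stt3a.L fell by 0.65 and spcs1.L, a subunit of signal peptidase, by 0.76 on the log2 scale. The call of spcs1.L (adjusted p = 0.0333 in limma) was lost without NICD 1, NICD 2, untreated 1, untreated 2 or untreated 4 and with median centring, and that of stt3a.L without NICD 1, NICD 2 or untreated 4. The catalytic subunit stt3b.S did not pass with the probe set taken (-0.16), but its other probe set fell by 1.45 on the log2 scale (adjusted p = 0.00345 in limma). Not past the test were rpn2.S (-0.82, adjusted p = 0.0564 in limma, and 0.00750 with the processing day as a block), rpn1.S (-0.21), spcs3.L (-0.17) and the peptidase subunit sec11a.L (0.39).

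The largest decreases of all members were among the lumenal chaperones. Every one of the 15 tested had a negative change, 5 fell (33.3%, against 14.6% of all genes), and the median was -0.91. The signal of dnajc3.L, a co-chaperone of BiP known in mammals also as an inhibitor of the stress kinase PERK, was 1629.1, 1785.8, 1603.7 and 1063.1 in untreated and 263.4 and 111.9 in NICD arrays. Even the lowest untreated array was far above the NICD arrays. The log2 change was -2.89 ± 0.32 (SE; adjusted p = 0.000139 in limma), with -2.56 on day 1 and -3.22 on day 2.

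The gene hspa5 encodes BiP, the main Hsp70 chaperone of the ER and the sensor-bound regulator of the unfolded protein response. The hspa5.L copy had signals of 2639.9, 3820.4, 2268.4 and 948.0 in untreated and 785.1 and 177.6 in NICD arrays. Untreated 4 was the lowest untreated array and lay close to NICD 1, but the groups did not overlap. The log2 change was -2.41 ± 0.58 (SE; adjusted p = 0.0106 in limma), whereas leaving out NICD 2 gave -1.43 (adjusted p = 0.161 in limma). The hspa5.S copy had 1780.9, 2538.0, 2551.6 and 900.7 in untreated and 1742.2 and 226.9 in NICD arrays. Here NICD 1 lay within the untreated range and NICD 2 below it, so the change (-1.43 ± 0.66, SE) did not pass (adjusted p = 0.126 in limma). It passed with the processing day as a block (adjusted p = 0.0460 in limma), and without NICD 1 the hspa5.S change was -2.82.

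The lectin chaperones calnexin and calreticulin, which hold newly glycosylated proteins until they fold, held 3 of the 5 chaperone decreases. Both copies of calnexin fell, canx.L by 1.02 and canx.S by 0.91 on the log2 scale, and of the other canx.L probe sets one fell by 1.15 and one was at 0.01. The calr.S signal was 12065.9, 12182.8, 13191.1 and 16176.8 in untreated, 9001.2 in NICD 1 and 2861.3 in NICD 2. Both NICD arrays were below the untreated range, NICD 2 much further than NICD 1. The log2 change was -1.38 ± 0.37 (SE; adjusted p = 0.0163 in limma), made up of -0.43 on day 1 and -2.34 on day 2. Each day held 1 NICD array, so a fit of the difference between the days takes its spread from untreated arrays alone. Such a fit cannot tell a difference between the days from one between the 2 NICD arrays. That difference between the days was itself past the test (-1.91, adjusted p = 0.0164 in limma for the interaction of day and treatment), the only such case among the 90 members, where 0.265% of genes were called. Its copy calr.L (-0.86), the Hsp90 chaperone copies hsp90b1.L (-0.67) and hsp90b1.S (-0.94), the secreted stress factor manf.S (-1.07), dnajb9.L (-0.49) and sdf2l1.S (-0.41) did not pass. With the processing day as a block, calr.L (adjusted p = 0.00357 in limma), hsp90b1.S (0.0303) and manf.S (0.00287) passed.

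The chaperones were uneven between arrays of a group. In 14 of the 15 the NICD 2 signal was below that of NICD 1 (93.3%, against 54.2% of genes). NICD 2 lay below the untreated range for 13 of the 15, against 1815 of the 5667 genes. NICD 1 lay below it for 5 (33.3%, against 27.8% of genes), a share near that of all genes. Untreated 4 was the lowest untreated array for 11 of the 15, against 1588 of the 5667 genes. Untreated 3, processed on the same day as untreated 4 and NICD 2, was the lowest for 1, against 1389 of the 5667 genes. The cause of this unevenness was not tested.

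Among the disulfide bond enzymes few decreases passed the test. All 7 tested had a negative change and 2 fell (28.6%, against 14.6% of all genes). Both NICD arrays were below the untreated range for 5 (71.4%, against 22.5% of all genes). The signal of pdia4.L, a disulfide isomerase with several thioredoxin domains, was 808.8, 901.9, 1245.5 and 938.6 in untreated and 422.6 and 362.9 in NICD arrays. The groups were clearly separate, and the log2 change was -1.23 ± 0.24 (SE; adjusted p = 0.00354 in limma). For p4hb.L, protein disulfide isomerase itself, the signals were 14196.2, 13830.2, 19296.2 and 18843.0 in untreated and 9809.5 and 8578.8 in NICD arrays. It fell by 0.83 on the log2 scale (adjusted p = 0.00960 in limma, 0.0896 without NICD 2), with -0.51 on day 1 and -1.15 on day 2, and a second p4hb.L probe set fell by 1.57. The change of p4hb.S was -0.41 and overlapped between groups. For pdia5.L the probe set taken did not pass (-0.48), while its other probe sets fell by 1.56 and 0.71 on the log2 scale (adjusted p = 0.00201 and 0.0287 in limma). Neither pdia3.S (-0.59, adjusted p = 0.0674 in limma) nor pdia6.S (-0.61, adjusted p = 0.0850 in limma) passed, and with the processing day as a block both did (adjusted p = 0.0372 and 0.0339 in limma). The change of pdia6.L (-0.94) rested on NICD 2: its signal was 2662.9 in NICD 1, within the untreated range of 987.2 to 3560.0, and 488.4 in NICD 2. Without NICD 1 the pdia6.L change was -2.12 and without NICD 2 it was 0.25.

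**Figure D3:**
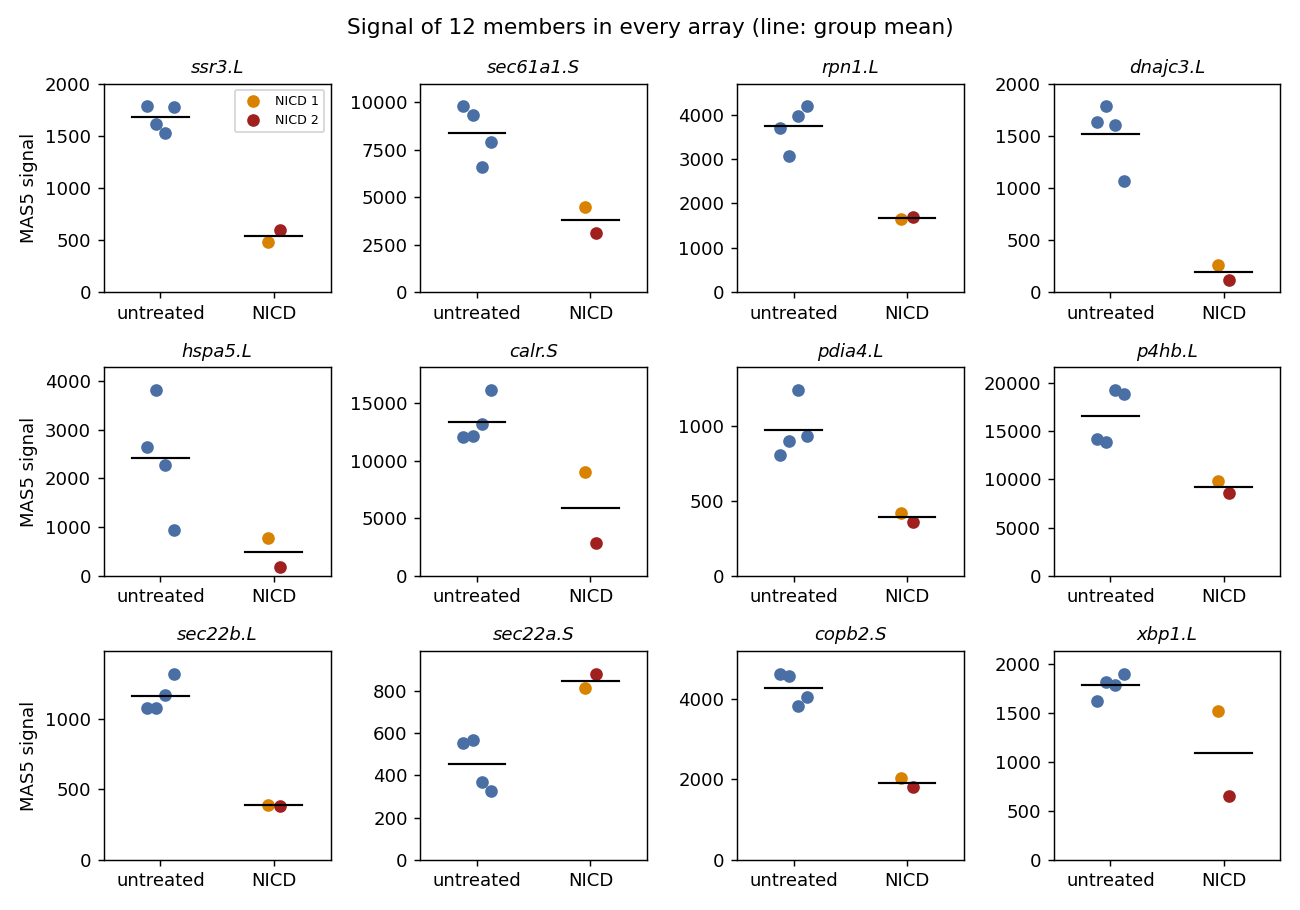
MAS5 signal (vertical axis, linear, from 0) of 12 members in the 4 untreated arrays (blue), NICD 1 (orange) and NICD 2 (red), with a line at each group mean; the vertical scale differs between panels. Both NICD arrays lie below every untreated array in 11 panels and above them for sec22a.S, and for calr.S, hspa5.L and xbp1.L NICD 2 is much lower than NICD 1. The 12 genes are a selection and do not stand for the members as a whole. Among the 90 tested members both NICD arrays were below for 47 (52.2%, against 22.5% of genes), and 39 overlapped.

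The COPI coat was the role with the largest share of decreases. Of 8 coatomer genes tested 5 fell (62.5%, against 14.6% of all genes), each of them at least 2-fold, and none rose. The median was -1.04. The 5 encode different subunits: copa.L (alpha, -1.03 ± 0.26, SE), copb1.L (beta, -1.22 ± 0.31), copb2.S (beta', -1.14 ± 0.20), copg1.L (gamma, -1.06 ± 0.22) and cope.S (epsilon, -1.13 ± 0.34). The copb2.S signal was 4618.8, 4567.8, 3808.5 and 4048.8 in untreated and 2025.5 and 1800.1 in NICD arrays. That of copb1.L was 2970.7, 3020.4, 1970.8 and 2113.7 in untreated and 1503.7 and 723.6 in NICD arrays. Neither gene overlapped between groups, and the adjusted p was 0.00177 for copb2.S and 0.0145 for copb1.L in limma. Without NICD 2, copb2.S alone of the 5 passed, and without untreated 1 or untreated 2 cope.S did not. All 3 probe sets of copg1.L fell, by 1.06, 0.80 and 1.17 on the log2 scale. The zeta and second gamma subunit genes copz1.L, copz1.S and copg2.S did not pass, with changes between -0.47 and 0.07 and overlapping groups.

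The role group of the COPII coat and SEC22 held the 1 member that rose, a SEC22 gene. Of 10 tested, 3 fell (30.0%, against 14.6% of all genes), 1 rose and 6 did not pass. Outside the SEC22 genes sec31b.L alone passed. The signal of sec22b.L, a SNARE protein of ER to Golgi vesicles, was 1072.4, 1074.4, 1167.6 and 1318.3 in untreated and 387.3 and 381.4 in NICD arrays. The NICD arrays were nearly identical and far below the untreated ones. The log2 change was -1.51 ± 0.21 (SE; adjusted p = 0.000546 in limma). For sec31b.L, an outer coat subunit, signals were 218.2, 172.8, 230.7 and 204.1 in untreated and 87.6 and 98.0 in NICD arrays. The log2 change was -0.93 ± 0.22 (SE; adjusted p = 0.00980 in limma). The sec31b.L change was -0.87 without NICD 1 and -0.99 without NICD 2, and did not pass in either. Without NICD 2 it passed if the same probe sets were tested as with all arrays. The SEC22 relative sec22a.S had 553.4, 566.6, 370.7 and 324.2 in untreated and 815.8 and 882.7 in NICD arrays. Both NICD arrays were above all untreated arrays, a log2 change of 0.90 ± 0.27 (SE; adjusted p = 0.0298 in limma) that was not past the test when NICD 1, NICD 2, untreated 3 or untreated 4 was left out. Its copy sec22a.L went the other way, with 330.7, 351.4, 303.6 and 292.2 in untreated and 168.9 and 220.9 in NICD arrays. That change of -0.64 ± 0.22 (SE) was at the edge of the test (adjusted p = 0.0491 in limma) and was lost when any array was left out. The coat genes sec13.S (-0.47), sec23b.L (0.30) and sec23ip.S (0.62), a SEC23-binding protein, did not pass.

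The 2 copies of a gene could move unequally. Both copies of 18 members were tested, and the difference of their changes was fitted for all 719 genes with both copies tested, of which 17.1% differed at an adjusted p under 0.05. Among the 18 pairs 3 differed, a share near that of all genes. In each the .L copy had the lower change: sec22a (-1.53 ± 0.27, SE; adjusted p = 0.00545 in limma), sec31b (-1.36 ± 0.24; 0.00545) and sec22b (-1.07 ± 0.30; 0.0395). All 3 are in the role group of the COPII coat and SEC22, and sec22a and sec22b are related genes. The sec22b.S change was -0.44 and that of sec31b.S was 0.43, neither past the test for the single gene. With either NICD array left out, sec22a still differed (adjusted p = 0.0464 without NICD 1 and 0.0458 without NICD 2 in limma). For sec31b the values were 0.0276 and 0.0717, and for sec22b 0.192 and 0.114. The sec22b difference was also not past the test without untreated 3 or untreated 4, with no filter on low values or with a pseudocount of 1, and sec22b.S had too low a signal to be tested without untreated 1 or untreated 2. The pairs hspa5 (-0.97; adjusted p = 0.0731 in limma) and rpn1 (-0.94; 0.0607, and 0.0240 with the processing day as a block) were not past the test. In canx and ssr3 both copies fell, and their difference was -0.11 ± 0.25 (SE) and -0.25 ± 0.27. Whether probe sets of close copies also detect each other's transcript was not tested.

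**Figure D4:**
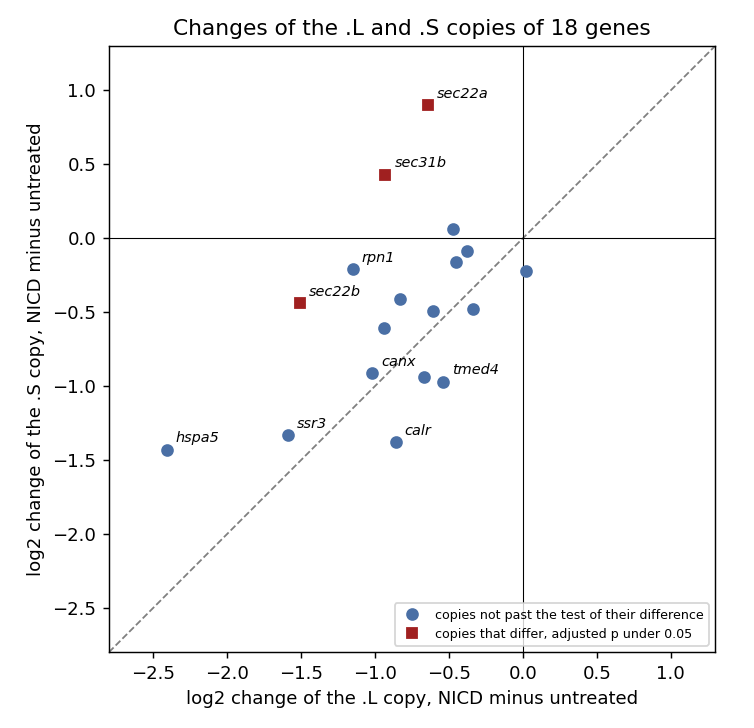
Log2 change (NICD minus untreated) of the .L copy (horizontal axis) against the .S copy (vertical axis) for the 18 genes with both copies tested; red squares mark the 3 pairs whose changes differed in limma, and the dashed line marks equal change. The sec22a, sec31b and sec22b points lie above the line and most others near it.

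Cargo and retrieval receptors showed smaller decreases. Of 15 tested, 4 fell (26.7%, against 14.6% of all genes), none by 2-fold, and none rose, with a median of -0.46. All 4 belong to the TMED (p24) family, membrane proteins that sort cargo into coated vesicles: tmed4.S (-0.97 ± 0.24, SE), tmed7.L (-0.85 ± 0.20), tmed2.L (-0.80 ± 0.21) and tmed9.S (-0.73 ± 0.19). The tmed7.L signal was 4682.9, 4620.7, 4687.2 and 3667.8 in untreated and 2361.9 and 2489.5 in NICD arrays. The tmed4.S signal was 1204.7, 1209.9, 815.2 and 989.1 in untreated and 543.3 and 489.3 in NICD arrays. In both genes the groups were apart (adjusted p = 0.00901 for tmed7.L and 0.0114 for tmed4.S in limma), and without NICD 2 none of the 4 passed. Without NICD 1, tmed7.L did not pass either. Its change was -0.81 without NICD 1 and -0.89 without NICD 2. It passed in both if the same probe sets were tested as with all arrays. All 5 probe sets of tmed2.L fell, between 0.80 and 1.32 on the log2 scale. The other copy tmed4.L (-0.54), the glycoprotein receptor lman1.S (-0.48) and ergic2.S (-0.13) did not pass. Nor did the KDEL receptors kdelr1.L (-0.44), kdelr2.L (-0.01) and kdelr3.L (-0.46), which return chaperones to the ER. The 2 receptors with positive changes, lman2l.S (0.33) and ergic3.L (0.02), did not pass either.

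No member in the roles of ER-associated degradation or unfolded protein response factors passed the test, where 14.6% of all genes fell. All 8 had negative changes, against 43.6% of genes. The response factors were xbp1.L, creb3l2.L and creb3.S alone, without any atf4, atf6 or ddit3 symbol. A gene named atf4-iii (0.46), picked with its value known, was not reached by the naming rule. Several degradation genes outside the members, named with their values known, did pass. Lower were edem1.L (-1.48), syvn1.L (-1.38), faf2.L (-1.11), faf2.S (-0.94) and ube2g2.L (-0.68), while os9.S (1.37) and nploc4.S (0.85) rose. In that list syvn1.S (-0.16) and vcp.S (-0.38) did not pass. Of the degradation members, herpud1.L changed by -0.61 (adjusted p = 0.0645 in limma, 0.0363 with the processing day as a block), herpud1.S by -0.49, sel1l.L by -0.53 and derl2.L by -0.46. The transcription factor xbp1, which in its spliced form drives chaperone and secretory genes, was represented by xbp1.L. Its signals were 1619.5, 1816.2, 1789.1 and 1902.2 in untreated, 1524.2 in NICD 1 and 647.6 in NICD 2. Both NICD arrays were below the untreated range, NICD 1 only just. The log2 change of -0.82 ± 0.31 (SE) did not pass (adjusted p = 0.0679 in limma), with -0.17 on day 1 and -1.47 on day 2, and passed with the processing day as a block (adjusted p = 0.0365 in limma) and without NICD 1 (-1.41, adjusted p = 0.00609 in limma). The array does not tell spliced from unspliced xbp1. The membrane-bound factors creb3l2.L (-0.39) and creb3.S (-0.26) did not pass: creb3l2.L had signals of 2615.9, 2067.2, 1896.4 and 2180.8 in untreated and 2138.5 and 1277.5 in NICD arrays, and creb3.S had 510.8, 481.6, 484.9 and 598.3 in untreated and 386.7 and 473.0 in NICD arrays.

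A list of further ER pathway genes whose names the choice of members had left out held decreases and some increases. Of 117 tested, 36 fell (30.8%, against 14.6% of all genes), 10 rose (8.55%, against 16.7%) and 71 did not pass, with a median of -0.40. The largest decreases were in agr2.L, a disulfide isomerase relative of mucus-secreting cells (-3.08 ± 0.25, SE), atf5.2.S, a stress-responsive transcription factor (-2.16 ± 0.29), arf1.L, the GTPase that recruits coatomer (-2.02 ± 0.22), and serp1.S, a small protein of the translocon (-1.78 ± 0.20). The arf1.L signal was 4052.1, 3800.2, 4105.2 and 4381.8 in untreated and 1180.2 and 810.1 in NICD arrays, a wide gap between groups. The delta subunit of the coatomer, arcn1.L, which the naming rule did not reach and which was singled out after its values were seen, fell by 1.00. Increases were led by fkbp9.L, an ER prolyl isomerase (2.23 ± 0.22, SE), from 230 ± 37.3 (SD, n = 4) to 1188 ± 28.4 (SD, n = 2), whereas another copy, fkbp9.S, fell by 1.47. The glucosidase II subunit prkcsh.S (1.59 ± 0.31), cnpy2.L (1.57 ± 0.25) and os9.S, a lectin of ER-associated degradation (1.37 ± 0.28), also rose, os9.S not past the test without NICD 2.

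Markers of several cell types differed between the same arrays. Of all tested genes 14.6% fell and 16.7% rose past the test. The goblet cell lectin itln1.L, the 1 goblet marker measured, fell from an untreated range of 18923 to 32144 to 826 in NICD 1 and 124 in NICD 2. All 8 ionocyte and all 8 multiciliated cell marker probe sets fell, with summed signals of 10296 to 14229 and 10029 to 13885 in untreated arrays, 782 and 1822 in NICD 1 and 518 and 1325 in NICD 2. Of 9 epidermis markers 8 fell (summed signal 51618 to 79080 in untreated, 21962 in NICD 1 and 11620 in NICD 2), and signal of these markers remained in every array. Of 8 tested neural progenitor markers 7 rose (summed over all 10 measured, 1523 to 2059 in untreated, 18465 in NICD 1 and 19383 in NICD 2). Of 7 notochord markers measured, 2 were tested and rose, both copies of not, and 5 had signals too low to be tested. The summed signal of the 7 was 262 to 399 in untreated, 2368 in NICD 1 and 4216 in NICD 2. Most of it in the NICD arrays came from not.L (1604.2 in NICD 1 and 3206.2 in NICD 2). The hatching gland enzyme astl2d.1.L fell (1356 to 2521 in untreated, 244 and 137 in NICD 1 and 2). The 2 tested markers of small secretory cells and the 2 of the cement gland did not pass. No marker was listed at 0, but no detection calls were used, so a low signal need not mean that the transcript was present. The part of these cell types in the changes of the secretory genes was not tested.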

How the data were processed

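Per the submitters' processing notes the authors made the values with MAS5, with no version named; the deposited values are signal intensities on a linear scale, and after leaving out the lowest and highest 2% their mean was about 500 on every array (500.1), so they had been scaled. The deposited experiment files hold other values, instrument settings per the file headers, which gave the processing day. Of 15611 probe sets 120 controls were left out. Of the rest 9304 had 1 gene symbol, 195 several and 5992 none; symbols were updated for 9227 through a RefSeq table of Xenopus_laevis_v10.1. No sequences were used.

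Probe sets above the 40th percentile of their array in at least 2 arrays (10368) were fitted with limma 3.58.1 in R 4.3.3 (lmFit, eBayes with a trend, 2-sided) on log2(signal + 32), without covariates, and adjusted p-values are Benjamini-Hochberg values over all 10368. Counts use 1 probe set per symbol, that with the highest mean signal. Means and SDs of signals are linear. The model was also run on simulated data with known changes and an assumed spread. There it called 80% of 2-fold and 100% of 4-fold changes, and 3.23% of its calls were false. Far fewer probe sets were changed there than were called in the data (1591 higher and 1684 lower). Those rates are therefore not the rates of these data. Python 3.11.15, pandas 2.3.3, numpy 2.4.6 and matplotlib 3.10.9 made the tables and plots.

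The members, role groups, gene lists and tests were chosen with earlier results of these data known. Named by rule were, per role, up to 2 members with the largest rise and 2 with the largest fall past the test, the response factors, the other copies of these, and the 4 largest rises and falls of the further ER pathway genes. The other members given by name were picked with their values known. The replicate numbers do not mark a shared source in the labels, so same-numbered samples were not treated as pairs. Their deviations from the group means correlated at 0.198 (number 1) and -0.231 (number 2). The deviations of the 2 NICD arrays mirror each other, so these values cannot decide whether the samples were paired. With 1 NICD array left out, the remaining one was taken to vary as much as untreated arrays do.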

Additional observations from a re-analysis of the deposited data

Results flagged for a closer look

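The change of calr.S differed between the processing days by -1.91 (day 2 minus day 1). With 1 NICD array on each day, a difference between days and one between the NICD arrays cannot be told apart. In 102 genes (the 94 members and 8 others) checked for an untreated array far from the other 3 by Dixon's criterion, 5 had one, and chance gives about 5%. Untreated 3 stood apart for kdelr2.L with 2664.0 (the others 3942 to 3992) and for lman1.S with 143.0 (the others 110.0 to 113.0). Untreated 4 stood apart for p4hb.S with 1803.2 (the others 2479 to 2598) and for tmed7.L with 3667.8 (the others 4621 to 4687), and untreated 2 for srp19.L with 1150.0 (the others 1062 to 1070).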

How the results depend on the processing

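The count of lower members stayed within 1.5 times 29 (26 to 40) with both blocks, a pseudocount of 1 or 80, quantile or median scaling, an open or 60th percentile filter, a fit without the eBayes trend, averaged probe sets, or probe sets lacking a shared-probe suffix. With an array left out it lay between 7 and 28 (9 to 29 with the filter of the full data kept, which was added after seeing the data), and fell under 20 only without NICD 2. The 1 higher member, sec22a.S, was not called with the replicate block, which gave 0 higher and 33 lower members and is not a pairing by source, nor with NICD 1, NICD 2, untreated 3 or untreated 4 left out (0 to 1). With an array left out, 3 to 9 further ER pathway genes were higher instead of 10, 16 to 35 were lower instead of 36, and 766 to 1685 of all genes changed instead of 1773. With the filter kept these ranges were 3 to 9 (6 without NICD 1 or untreated 4), 17 to 35 and 906 to 1690. The count of genes whose copies differed was 123 of 719, 198 with the processing day as a block and 24 to 87 with an array left out. The median change of the members lay between -0.65 and -0.40 in every setting run. Among the named genes pdia6.L turned direction, at 0.25 without NICD 2 and -2.12 without NICD 1. Other genes named as not past the test also turned when 1 NICD array was left out. Against the untreated mean, copz1.S was at -0.42 in NICD 1 and 0.54 in NICD 2. In the same order kdelr2.L was at -0.28 and 0.25, ergic3.L at -0.24 and 0.28, and copg2.S at -0.1 and 0.24. For syvn1.S the values were 0.39 and -0.7. Depth is not defined for arrays, and the 4 members with signals too low to test have no change given.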
